A study of Mus musculus with 6 samples.

Results

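The mitochondrial carriers of the Slc25 family were compared between biliary epithelial cells (the lining of the liver's bile ducts) from mice with and without a conditional Sox9 deletion. Members were the genes whose symbol in the deposited table is Slc25a followed by a number, and 47 of the 25302 genes listed met this rule. Of these, 41 had a mean of at least 10 normalized reads and entered the test, beside 17153 genes in all. The other 6 (Slc25a18, Slc25a21, Slc25a31, Slc25a41, Slc25a43 and Slc25a54) stayed at or below 13.8 normalized reads in every sample and were not tested. A normalized read is a gene's read count divided by the sample's size factor, a scale for sequencing depth.

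Both groups carried the floxed Sox9 allele. The 3 Control samples had the genotype Sox9fl/fl, and the 3 Sox9cKO samples had Sox9fl/fl:AlbCre+/-, in which the albumin promoter drives the Cre recombinase. That promoter is known to be active in hepatocytes and in the embryonic precursors they share with bile duct cells, so Cre is not specific to biliary cells. Total RNA was depleted of ribosomal RNA and sequenced. The labels do not say that the 3 samples of a group came from separate animals, so p-values measure the spread between these samples, which may be technical.

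Carriers of this family are small proteins with repeated membrane-spanning segments that exchange metabolites, nucleotides, cofactors and ions across the inner mitochondrial membrane. They connect oxidative phosphorylation, the tricarboxylic acid cycle, the urea cycle and heme synthesis with the cytosol. The symbol rule also takes in Slc25a17, which is known as a peroxisomal carrier, and Slc25a46, which sits in the outer mitochondrial membrane. In biliary cells, mitochondrial ATP supplies the ion pumps that drive bile secretion.

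Several carriers exist as close copies, and reads could be divided between them. The coding sequences of the ADP/ATP carriers Slc25a4 and Slc25a5 were 77.6% identical, the highest value among the 12 pairs compared. The ATP-Mg/phosphate carriers Slc25a24 and Slc25a25 were 61.7% identical. The stretches around the longest run of identical bases are shown because the results below compare these copies. They are read 5′ to 3′ from GENCODE M21 transcripts, and capitals mark the shared run. The run is 20 bases long in the first pair and 17 bases long in the second. The whole stretches shown, of 60 bases each, are coding bases 302 to 361 of Slc25a4 and of Slc25a5. For the second pair they are coding bases 1171 to 1230 of Slc25a24 and 1288 to 1347 of Slc25a25.
Slc25a4: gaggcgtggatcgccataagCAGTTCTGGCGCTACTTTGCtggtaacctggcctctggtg
Slc25a5: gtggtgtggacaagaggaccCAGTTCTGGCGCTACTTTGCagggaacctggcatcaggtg
Slc25a24: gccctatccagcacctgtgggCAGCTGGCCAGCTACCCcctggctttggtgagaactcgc
Slc25a25: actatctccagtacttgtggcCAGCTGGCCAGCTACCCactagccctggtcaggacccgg
Over the 12 pairs the longest shared coding run was 11 to 23 bases. Untranslated regions and pseudogenes were not compared, so reads shared through them remain uncertain.

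The targeted gene checks the labels. Sox9 had 6211, 6043 and 6293 normalized reads in Control replicates 1, 2 and 3 and 3363, 3165 and 3340 in Sox9cKO. It fell by 0.91 on the log2 scale (standard error 0.10, limma, Benjamini-Hochberg adjusted p = 0.00501). Sox9 reads were thus reduced but not absent, with a Sox9cKO mean 0.532 times that of Control. Total reads were 11883496 to 16191990 per sample, of which 14344 to 20010 belonged to the carriers. Markers of biliary epithelium summed to 63866 to 102735 normalized reads in Control and 55289 to 84931 in Sox9cKO. Hepatocyte markers summed to 18875 to 29994 and 22881 to 37057, and endothelial markers ranged far more widely, from 1484 to 34116 in Control and from 5356 to 34750 in Sox9cKO.

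Among the 41 tested carriers, 1 rose in Sox9cKO and 0 fell (limma on log2 of normalized reads plus 1, adjusted p under 0.05 over all genes). This is 2.44% of the carriers, and 2.97% of all tested genes were called (510 of 17153, with 2.03% higher and 0.939% lower). On the recovered read counts, edgeR called 1 carrier beside 2.86% of all genes and DESeq2 called 2 beside 7.08%. At an unadjusted p under 0.05 the test marked 8 of 41 carriers (19.5%) against 17.8% of all genes. The values of the 2 groups did not overlap for 12 carriers (29.3%), and this was so for 24.2% of all genes. The log2 fold change was above 0 for 27 of 41 carriers, or 65.9%, against 54.2% of all genes. That split moved with the scaling, to 25 of 41 with TMM and 21 of 41 with quantile normalization. The share of all genes is given for the main scaling only. The median log2 fold change of all genes moved too, to -0.008 with TMM and -0.031 with quantile normalization. The median log2 fold change was 0.10 for the carriers and 0.036 for all genes, and 29 of 41 carriers lay within 0.5 of no change. The median absolute log2 fold change was 0.248 for the carriers and 0.266 for all genes. Changes of at least 1 on the log2 scale were seen in 2 carriers (4.88%) and in 9.88% of all genes. All 3 same-numbered pairs were higher in Sox9cKO for 13 carriers and lower for 7, which is 31.7% and 17.1% of those tested, beside 26.7% and 21.8% of all genes.

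**Figure D1:**
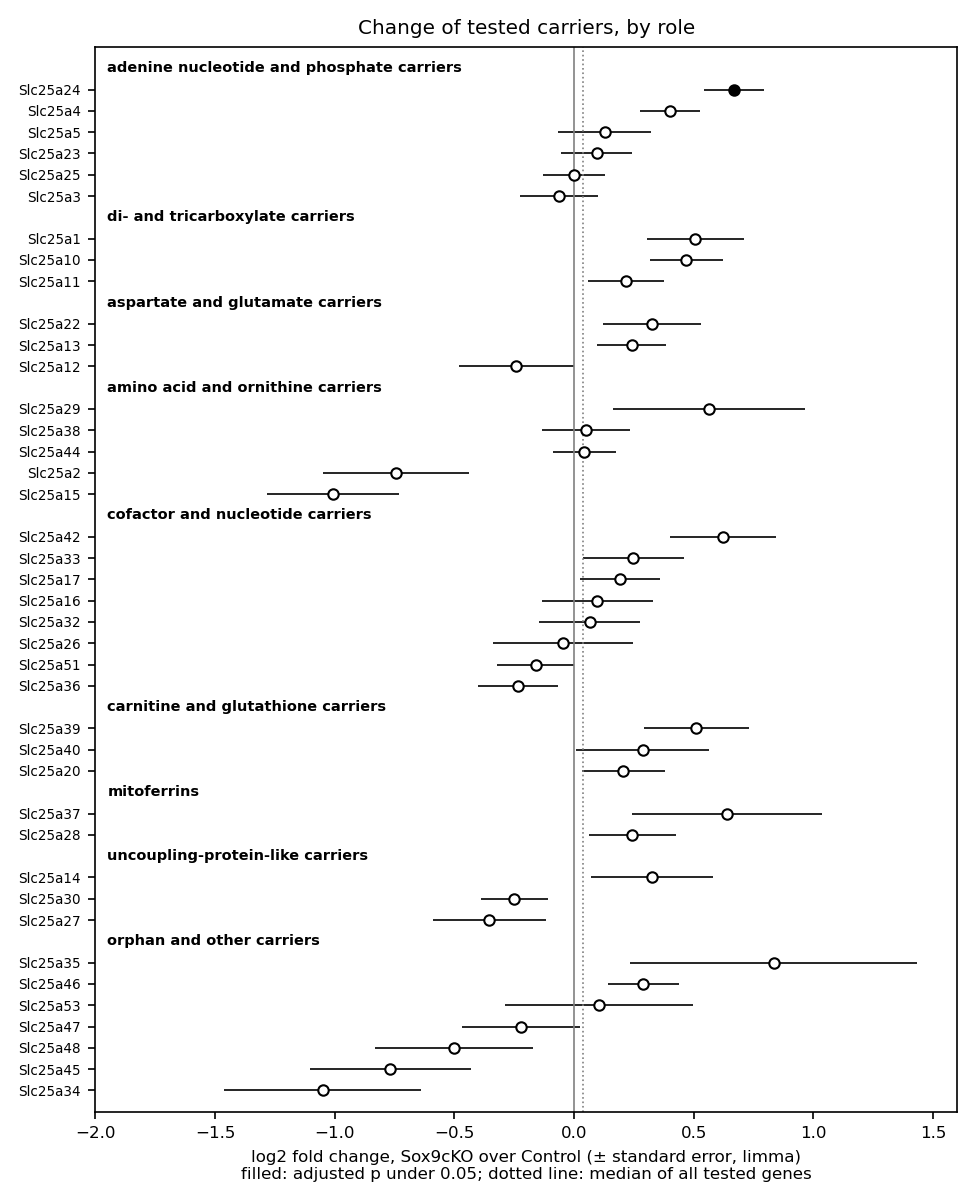
Log2 fold change of Sox9cKO over Control (horizontal axis, points, with standard error bars) for the tested carriers reported here, grouped by role; the filled point passed the test and the dotted line is the median of all genes. Slc25a24 at 0.67 is the filled point, and Slc25a34 and Slc25a15 lie at the low end, at -1.05 and -1.01.

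The carrier that rose was Slc25a24 (ENSMUSG00000040322), a calcium-regulated carrier that exchanges ATP-Mg for phosphate and so sets the adenine nucleotide content of the mitochondrial matrix. It had 1559, 1800 and 1772 normalized reads in Control and 3047, 2460 and 2669 in Sox9cKO. Every Sox9cKO sample lay above every Control sample, with the widest gap between the samples numbered 1. The mean went from 1710 ± 132 to 2726 ± 298 (SD, n = 3 each), which is 1.59-fold, or 0.67 on the log2 scale (standard error 0.12, limma adjusted p = 0.0377). The call was close to its threshold: leaving out any 1 of the 6 samples gave adjusted p-values of 0.0652 to 0.16, while the log2 fold change stayed between 0.57 and 0.74 in all 17 alternatives. In bulk RNA, more reads per cell and more cells of a type that uses the gene cannot be told apart. Of the 5 leukocyte markers in the table, only Csf1r was called, higher in Sox9cKO by 0.92 (adjusted p = 0.0142), and the other 4 had negative log2 fold changes. Of the 7 markers of biliary epithelium, only Krt7 was called, higher in Sox9cKO by 0.997 (limma adjusted p = 0.0408). The log2 fold change was above 0 for 2 of these 7 markers and below 0 for 5. All 6 endothelial markers had log2 fold changes above 0, from 0.63 to 1.24, and 0 were called. Among the 8 hepatocyte markers, only Tat was called, higher in Sox9cKO by 2.26. The part of these cell types in the Slc25a24 result was not tested.

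The other ATP-Mg/phosphate carriers did not pass the test. Slc25a25 had 2215, 1793 and 2191 normalized reads in Control and 2218, 1890 and 2079 in Sox9cKO, a log2 fold change of 0.00 (standard error 0.13, adjusted p = 0.999). Slc25a23 had 392 to 502 in Control and 435 to 526 in Sox9cKO (0.09, adjusted p = 0.795). Both sets of values overlapped between the groups. Slc25a24 made up 36.8%, 45.2% and 39.7% of the reads of these 3 genes in the Control samples and 53.0%, 51.4% and 50.6% in Sox9cKO. The 2 groups of shares did not overlap, and their means differed by 11.1 percentage points (two-sided exact permutation p = 0.1, the smallest that 3 against 3 allows, and 0.525 after adjustment over the 7 shares computed). The related genes Slc25a41 and Slc25a54 stayed under 5 normalized reads.

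**Figure D2:**
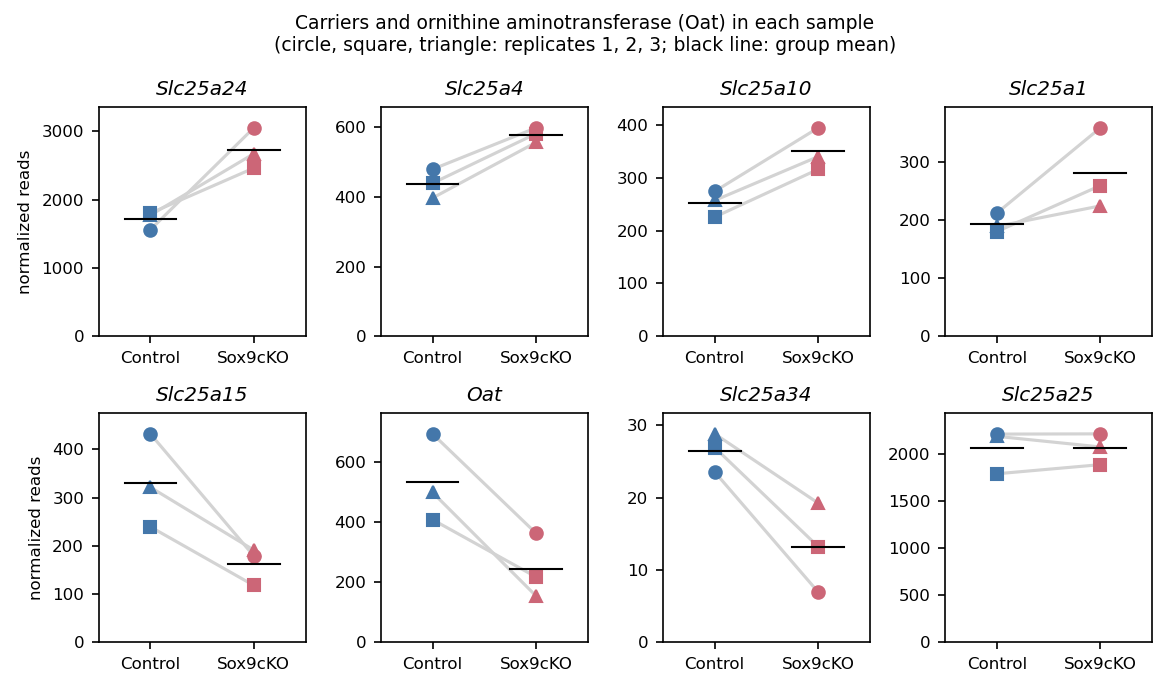
Normalized reads (vertical axes from 0) in each Control and Sox9cKO sample for 7 carriers and for Oat; grey lines join samples with the same replicate number and black lines are group means. Slc25a24, Slc25a4, Slc25a10 and Slc25a1 are higher in all 3 Sox9cKO samples, Slc25a15, Oat and Slc25a34 are lower, and Slc25a25 overlaps.

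The ADP/ATP carriers exchange the ATP made in the matrix for cytosolic ADP. Slc25a4, the form known best from heart and muscle, had 480, 440 and 397 normalized reads in Control and 599, 582 and 557 in Sox9cKO. The groups did not overlap and the ratio of means was 1.32, but the gene did not pass the test (log2 fold change 0.40, standard error 0.13, adjusted p = 0.155). Slc25a5, the widely expressed form, had 1116, 1117 and 1058 in Control and 1612, 1118 and 954 in Sox9cKO. Its Sox9cKO samples spread on both sides of the Control values (0.13, standard error 0.19, adjusted p = 0.787). Slc25a4 made up 27.3 to 30.1% of the reads of the pair in Control and 27.1 to 36.9% in Sox9cKO (exact permutation p = 0.4, adjusted 0.56). The testis form Slc25a31 stayed under 7 normalized reads. Slc25a3, which brings in the phosphate for ATP synthesis, had 2549, 1972 and 2188 in Control and 2568, 2072 and 1818 in Sox9cKO (-0.06, standard error 0.16, adjusted p = 0.889).

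The di- and tricarboxylate carriers link the tricarboxylic acid cycle with the cytosol. All 3 tested members had log2 fold changes above 0, with a median of 0.47, and 0 of 3 passed the test. Slc25a10, which exchanges malate or succinate for phosphate, had 274, 226 and 257 normalized reads in Control and 394, 316 and 340 in Sox9cKO (1.39-fold, log2 fold change 0.47, standard error 0.15, adjusted p = 0.169). Slc25a1, which exports citrate for lipid synthesis, had 212, 180 and 189 in Control and 358, 259 and 224 in Sox9cKO (1.45-fold, 0.51, standard error 0.20, adjusted p = 0.25). Neither gene's groups overlapped, and Sox9cKO replicate 1 was the highest sample for both. The oxoglutarate carrier Slc25a11 overlapped between the groups (0.22, adjusted p = 0.543).

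The aspartate and glutamate carriers feed the malate-aspartate shuttle, which moves reducing equivalents into mitochondria. Slc25a13 (citrin), the form known from liver, had 268, 219 and 248 normalized reads in Control and 296, 269 and 301 in Sox9cKO. The samples of the groups only just failed to overlap (0.24, standard error 0.14, adjusted p = 0.444). Slc25a12 (aralar) had a log2 fold change of -0.24 (adjusted p = 0.664), and the Sox9cKO minus Control difference in its share of the pair was -7.94 percentage points (exact permutation p = 0.2, adjusted 0.525), or -3.70 points without Sox9cKO replicate 3. The glutamate carrier Slc25a22 had 65.6, 92.8 and 87.6 in Control and 106, 98.3 and 101 in Sox9cKO (0.32, standard error 0.20, adjusted p = 0.47).

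Among the amino acid carriers, the ornithine carrier Slc25a15 (ENSMUSG00000031482) differed most. It exchanges cytosolic ornithine for citrulline and is needed for the urea cycle in hepatocytes. It had 432, 239 and 321 normalized reads in Control and 179, 118 and 191 in Sox9cKO. The groups did not overlap, and the ratio of Sox9cKO to Control was 0.414, 0.493 and 0.595 in the same-numbered pairs. The mean was 331 ± 96.7 in Control and 163 ± 39.2 in Sox9cKO (SD, n = 3 each), 2.03-fold lower. The log2 fold change was -1.01 (standard error 0.27, limma adjusted p = 0.115) and did not pass the test. With the replicate number as a block, which removes any level that same-numbered samples share, it did (adjusted p = 0.0141). It was also called by DESeq2 (adjusted p = 0.00835). Without single samples the adjusted p of the unblocked fit was 0.0863 to 0.315. Under the block 2 of 41 carriers were called, beside 8.05% of all genes, and edgeR with the block also called 2, beside 6.76%.

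Ornithine aminotransferase, Oat, which consumes ornithine in the matrix, was named after its values were seen. It had 695, 409 and 500 normalized reads in Control and 364, 218 and 155 in Sox9cKO, a log2 fold change of -1.17 (standard error 0.33, adjusted p = 0.126, and 0.0144 with the replicate block). As for Slc25a15, all Sox9cKO samples lay below all Control samples. The summed hepatocyte markers were 29994, 18875 and 20523 in Control and 34770, 22881 and 37057 in Sox9cKO. Albumin (Alb) makes up most of this sum, with 27683, 17384 and 18944 in Control and 32147, 21399 and 35363 in Sox9cKO, higher in each same-numbered pair. The other markers did not all go the same way: the ratio of Sox9cKO to Control for Ttr was 0.862, 0.585 and 0.799 in pairs 1, 2 and 3, and Cyp3a11 and Cps1 were lower in pair 3 (0.474 and 0.645) and higher in the other pairs. Of the 8 markers only Tat passed the test, higher in Sox9cKO by 2.26 (adjusted p = 0.00726). Their part in the 2 results was not tested.

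The second ornithine carrier, Slc25a2, was low, with 31.9, 25.1 and 27.7 normalized reads in Control and 12.9, 19.8 and 17.0 in Sox9cKO. Its groups did not overlap either (-0.75, standard error 0.30, adjusted p = 0.261), and its coding sequence is 65.9% identical to that of Slc25a15. Slc25a29, a carrier of basic amino acids, had 9.25 to 23.0 in Control and 18.1 to 24.9 in Sox9cKO (0.57, adjusted p = 0.525). The glycine carrier Slc25a38 (0.05) and the branched-chain amino acid carrier Slc25a44 (0.04) were near no change.

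The 9 carriers of cofactors and nucleotides had a median log2 fold change of 0.065, and 0 passed the test. The coenzyme A carrier Slc25a42 had the highest value of them, with 55.5, 47.3 and 42.6 normalized reads in Control and 79.6, 65.2 and 80.4 in Sox9cKO. Its groups did not overlap (1.55-fold, 0.62, standard error 0.22, adjusted p = 0.201). The NAD carrier Slc25a51 had 1799, 1967 and 1720 in Control and 1829, 1297 and 1837 in Sox9cKO, where replicate 2 alone was low (-0.16, adjusted p = 0.665). Of the pyrimidine nucleotide carriers, Slc25a36 had 843, 679 and 873 in Control and 637, 592 and 815 in Sox9cKO, each pair lower but the groups overlapping (-0.23, adjusted p = 0.53). Slc25a33 was at 0.25, and the share of Slc25a33 in the pair was 6.98 percentage points higher in Sox9cKO (exact permutation p = 0.3). That difference was 3.55 points without Sox9cKO replicate 2 and 3.99 without Control replicate 1. The carriers of S-adenosylmethionine (Slc25a26, -0.05) and folate (Slc25a32, 0.07), and Slc25a16, tied to coenzyme A (0.10), were near no change. Peroxisomal Slc25a17 was at 0.19 (adjusted p = 0.617).

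The carriers of carnitine and glutathione all had log2 fold changes above 0, with 0 of 3 called. Slc25a39, which imports glutathione, had 375, 320 and 381 normalized reads in Control and 714, 440 and 422 in Sox9cKO (1.47-fold, 0.51, standard error 0.22, adjusted p = 0.287). Its groups did not overlap, and Sox9cKO replicate 1 was well above the other two. Its relative Slc25a40 was lower in level and overlapped (0.29, adjusted p = 0.654). The carnitine-acylcarnitine carrier Slc25a20, which brings fatty acids in for oxidation, had 202, 161 and 173 in Control and 230, 177 and 213 in Sox9cKO, with overlap (0.21, adjusted p = 0.603).

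The mitoferrins import iron for heme and iron-sulfur clusters, and Slc25a37 (mitoferrin 1) is known best from developing red cells. Slc25a37 had 224, 504 and 183 normalized reads in Control and 440, 572 and 311 in Sox9cKO. The groups overlapped, because Control replicate 2 exceeded 2 Sox9cKO samples (0.64, standard error 0.40, adjusted p = 0.463, and 0.0762 with the block). Beside these values, the 6 endothelial markers summed to 10551, 34116 and 1484 in Control and 26790, 34750 and 5356 in Sox9cKO. Their order over the samples was the same as that of Slc25a37 except that Sox9cKO replicate 3 and Control replicate 1 changed places. The lowest value among the 6 endothelial markers was Clec4g at 83.0 in Control replicate 3. The 3 erythroid markers in the table summed to 32.8, 57.5 and 13.8 in Control and 24.9, 48.2 and 6.79 in Sox9cKO, with hemoglobin Hba-a1 as low as 1.13. Slc25a37, the endothelial sum and the erythroid sum were each highest in replicate 2 and lowest in replicate 3 of both groups. How many of all genes share this order was not counted. Over all tested genes, deviations from the group mean correlated between same-numbered samples at 0.472 for replicate 2 and 0.542 for replicate 3. The part of endothelial or erythroid cells in the Slc25a37 values was not tested. Slc25a28 (mitoferrin 2), the form of most other cells, had 152, 196 and 152 in Control and 197, 222 and 172 in Sox9cKO (0.24, standard error 0.18, adjusted p = 0.551).

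**Figure D3:**
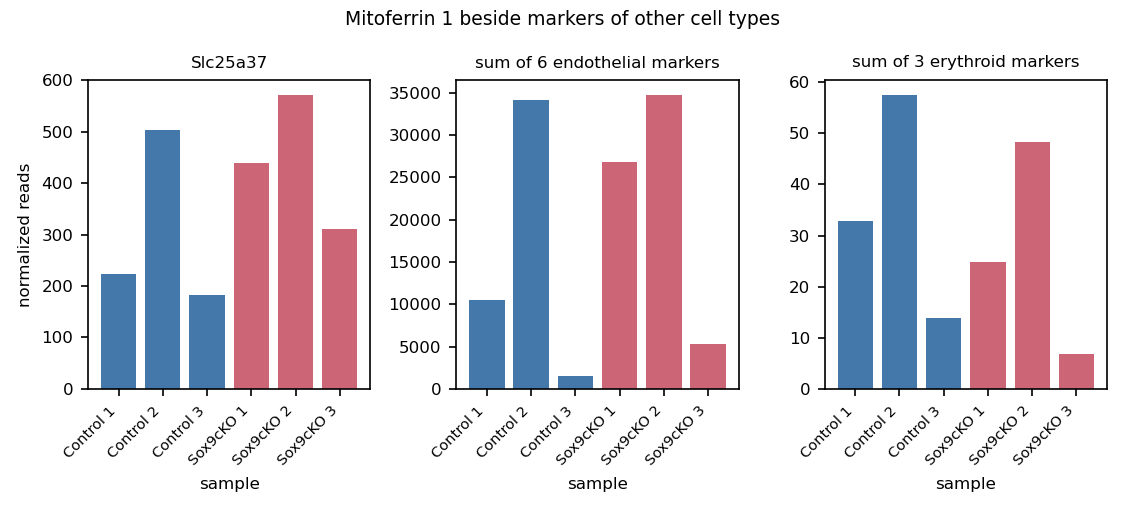
Normalized reads (vertical axes from 0) of Slc25a37, of 6 endothelial markers summed and of 3 erythroid markers summed, 1 bar per sample with Control in blue and Sox9cKO in red. Sox9cKO replicate 2 and Control replicate 2 are the highest samples for Slc25a37 (572 and 504) and for the endothelial sum (34750 and 34116). They are also the highest for the erythroid sum (48.2 and 57.5), which stays at or below 57.5.

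The uncoupling-protein-like carriers resemble the proteins that let protons leak back into the matrix. Slc25a30 had 729, 612 and 677 normalized reads in Control and 584, 492 and 625 in Sox9cKO (-0.25, standard error 0.14, adjusted p = 0.415). Slc25a27 had 91.6, 84.5 and 104 in Control and 58.7, 69.0 and 94.0 in Sox9cKO (-0.35, standard error 0.24, adjusted p = 0.495). Each was lower in all 3 pairs, and the groups overlapped. Slc25a14 was at 0.33 (adjusted p = 0.569). Among carriers with no settled substrate, Slc25a34 had 23.5, 26.9 and 28.8 normalized reads in Control and 6.96, 13.2 and 19.2 in Sox9cKO. It had the lowest log2 fold change of the family (-1.05, standard error 0.41, adjusted p = 0.242) at few reads. Slc25a45 had 38.7, 45.5 and 32.3 in Control and 28.9, 25.5 and 14.7 in Sox9cKO (-0.77, standard error 0.34, adjusted p = 0.298). Both were lower in all 3 Sox9cKO samples. Slc25a47, known mainly from hepatocytes, had 154 to 166 in Control and 95.5 to 178 in Sox9cKO (-0.22, adjusted p = 0.698). Slc25a46 of the outer membrane was at 0.29 (adjusted p = 0.372), Slc25a48 at -0.50 and Slc25a53 at 0.10. Slc25a35 had the highest log2 fold change of the family, 0.83, with a standard error of 0.60 and only 3.46 to 26.9 reads.

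Levels were set against gene length to compare carriers with each other. In normalized reads per kb of exon, the phosphate carrier Slc25a3 was first, at 1149 ± 150 in Control and 1106 ± 196 in Sox9cKO (SD, n = 3 each). Slc25a5 followed at 885 ± 27.6 and 990 ± 276, and in Sox9cKO the spread of these neighbours overlapped. In Control, Slc25a25 (502 ± 57.5) and Slc25a24 (498 ± 38.3) did not differ beyond their spread, and Slc25a51 was at 412 ± 28.4. In Sox9cKO, Slc25a24 (794 ± 86.8) stood above Slc25a25 (501 ± 39.9) and Slc25a51 (373 ± 69.8). These 5 genes held 53.7 to 57.5% of all carrier reads in the 6 samples. Slc25a24 alone held 10.4% of the carrier reads in Control and 15.3% in Sox9cKO. Slc25a4 (228 in Control and 301 in Sox9cKO) and Slc25a39 (213 and 312) came next per kb, in a different order in each group, and Slc25a35 was the lowest tested member.

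**Figure D4:**
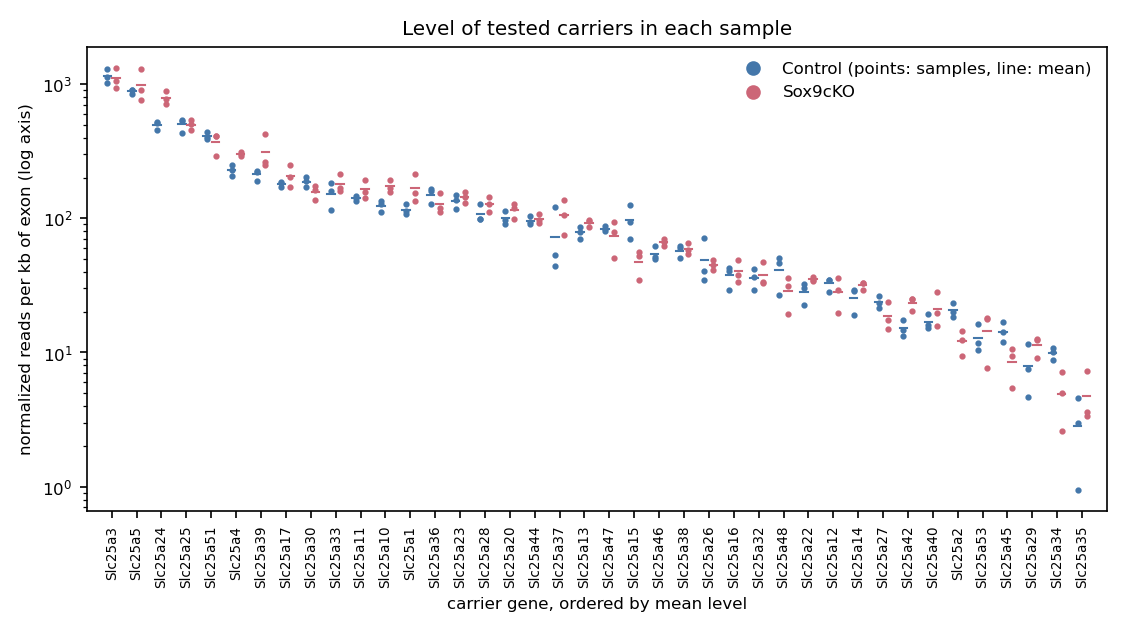
Normalized reads per kb of exon (vertical axis, log scale) of the tested carriers reported here, ordered by mean level, with 1 point per sample and a line at each group mean. Slc25a3, Slc25a5, Slc25a24, Slc25a25 and Slc25a51 lead, and the Sox9cKO points of Slc25a24 lie above its Control points.

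All carriers together held 0.124, 0.116 and 0.121% of all reads in Control and 0.133, 0.115 and 0.118% in Sox9cKO (exact permutation p = 0.9). Of the carrier reads, amino acid and ornithine carriers held 5.44, 4.39 and 5.16% in Control and 3.60, 3.81 and 3.78% in Sox9cKO, with no overlap. Most of this difference was Slc25a15, which alone held 2.02% in Control and 0.916% in Sox9cKO. Uncoupling-protein-like carriers held 4.63 to 5.19% and 3.55 to 4.51%, also without overlap, and of these Slc25a30 alone held 4.11% and 3.19%. Higher in Sox9cKO without overlap were di- and tricarboxylate carriers (4.10 to 4.36% against 4.83 to 5.53%) and carnitine and glutathione carriers (3.33 to 3.75% against 4.09 to 5.04%). In the latter, Slc25a39 alone held 2.19% in Control and 2.96% in Sox9cKO. Adenine nucleotide and phosphate carriers held 47.7 to 49.9% in Control and 49.8 to 53.7% in Sox9cKO (mean and SD 48.9 ± 1.11% and 51.9 ± 1.95%). Their groups overlapped, as did those of all remaining roles. These role shares add up to a fixed whole, so a gain of 1 group lowers the others, and they were not tested. How often such shares of other genes would not overlap was not computed.

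**Figure D5:**
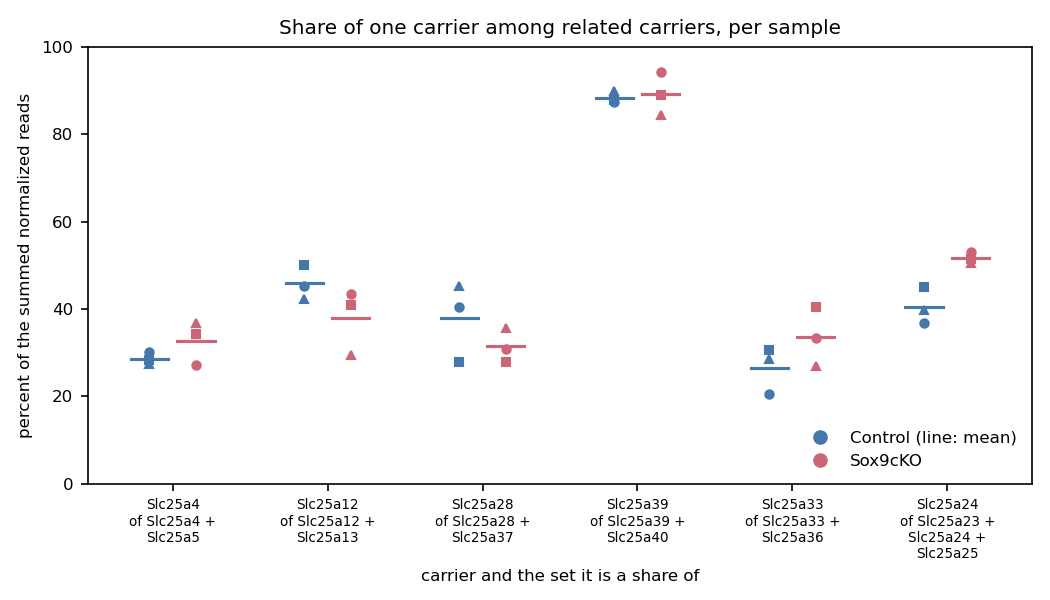
Percent of summed normalized reads (vertical axis, 0 to 100) that 1 carrier takes within a set of related carriers, 1 point per sample with its replicate's marker and a line at each group mean. Slc25a24 takes 36.8 to 45.2% of its set in Control and 50.6 to 53.0% in Sox9cKO, the only set of the 6 drawn whose groups do not overlap.

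Genes that work with the carriers were read from 6 lists, 54 genes of which 52 were tested. None passed the test (limma, 0 of 52, and edgeR 0 of 52), and 10 (19.2%) had an unadjusted p under 0.05, beside 17.8% of all genes. Log2 fold changes were above 0 for 37 (71.2%), beside 54.2% of all genes, with a median of 0.15 in the main scaling. With quantile normalization they were above 0 for 33, for which no share of all genes is given here. The replicate block called 3 (5.77%, beside 8.05% of all genes), which were Glud1, Gpd1 and Oat. DESeq2 also called 3 (beside 7.08% of all genes), which were Glud1, Oat and Ppargc1a. Glud1, the glutamate dehydrogenase of the matrix, had 3741, 2981 and 3067 normalized reads in Control and 4794, 4436 and 5140 in Sox9cKO (0.56, adjusted p = 0.073, and 0.0297 with the block). Gpd1 of the glycerol phosphate shuttle had 531, 323 and 474 in Control and 867, 477 and 611 in Sox9cKO, where the groups overlapped but each pair was higher (0.54, adjusted p = 0.35, and 0.0438 with the block). Sfxn1, the serine carrier of another family, had 371, 351 and 384 in Control and 536, 478 and 531 in Sox9cKO, and its groups did not overlap (0.48, adjusted p = 0.0954). The outer membrane pore Vdac2, through which metabolites reach the carriers, had 1134, 1124 and 1095 in Control and 1620, 1368 and 1404 in Sox9cKO (0.39, adjusted p = 0.132). Ucp2, a family member under another symbol, had 1381, 1265 and 1301 in Control and 1883, 1270 and 1647 in Sox9cKO, and its groups overlapped (0.26, adjusted p = 0.444). Ppargc1a, a coactivator of genes for mitochondrial biogenesis, had 401, 272 and 274 in Control and 171, 158 and 214 in Sox9cKO, all below Control (-0.79, limma adjusted p = 0.11, and 0.0156 by DESeq2).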

How the data were processed

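RNA of 3 Control and 3 Sox9cKO biliary epithelial samples was sequenced with a stranded total RNA kit with molecular identifiers, per the labels' protocols. The authors deposited a signal per gene: gene counts divided by a size factor. The submitters' processing notes name GRCm39 and DESeq2 1.36.0. Aligner, annotation, and use of identifiers and strand are not given in the sources used here.

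Values were whole multiples of 1 read in 100% of cases (within 0.001 reads), with size factors of 0.868 to 1.19. Genes with a mean of at least 10 were tested on log2(value + 1) with limma 3.58.1 (trend, R 4.3.3) and Benjamini-Hochberg adjustment at 0.05 over 17153 genes. Fold changes are on that scale and understate those of low genes. Alternatives used the recovered reads in edgeR 4.0.16 and DESeq2 1.42.0. On those reads edgeR called 491 genes. Other alternatives changed pseudocount, filter, normalization or trend, added a replicate block, or left out single samples. The steps were tested on simulated data.

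The replicate numbers in the sample titles were used to pair the samples for the block. The titles do not say what same-numbered samples share. Deviations of same-numbered samples from their group means correlated at 0.207, 0.472 and 0.542. Those of differently numbered samples correlated at -0.437 to 0.0476, and taking deviations from a mean of 3 samples pushes such values down. Lengths and coding sequences came from GENCODE M21 (GRCm38), and no coordinates were taken from it. Values per sample are given for called carriers, the 2 of smallest p in each role group, the 5 of highest level per length, and the gene of smallest p in each related list; others were named after their values were seen. Of the tested carriers, 1 is counted in the totals but is otherwise not reported here. The members and lists were chosen with earlier results of these data known.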

Additional observations from a re-analysis of the deposited data

How the results depend on the processing

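With the replicate block, 1381 genes were called, 1160 with edgeR and the block, and 1214 with DESeq2; without single replicates the count was 199 to 387. The number of carriers called was 2 with the block, 2 with edgeR and the block, and 2 with DESeq2 (Slc25a24 and Slc25a15). It was 0 with quantile normalization, beside 515 of 17153 genes, and 0 without the trend, beside 400 of 17153 genes. Without single replicates it was 0 each time, beside the 199 to 387 of 17153 genes given above. For the related genes it was 3 with the block, 2 with edgeR and the block, and 3 with DESeq2. The block changed no other carrier's call. The cause was not tested. Of all calls, 68.4% were higher in Sox9cKO, against 60.6% with quantile normalization and 57.2% with edgeR and the block. The median of all genes was -0.008 with TMM and -0.031 with quantile normalization. The median of the carriers was 0.060 with TMM, 0.034 with quantile normalization and 0.0898 to 0.181 without single replicates, the highest without Control replicate 3. Slc25a25 turned to -0.044 (TMM), -0.083 (quantile), -0.047 (edgeR), -0.044 (edgeR with the block) and -0.041 (DESeq2), and ran from -0.0985 to 0.0617 without single replicates. Over the same omissions Slc25a3 ran from -0.196 to 0.0526, Slc25a5 from -0.0864 to 0.291 and Slc25a51 from -0.246 to 0.00576. The share of Slc25a39 in its pair differed by -1.73 to 3.18 percentage points, and that of all carriers by -0.00349 to 0.00540. The 6 carriers with a mean under 10 were not tested, and why their values were low was not examined.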
